A study of Ooceraea biroi with 96 samples.

Results

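Genotype M and genotype B were compared in the brains of 8-day-old clonal raider ants (Ooceraea biroi) that had all grown up in colonies of lineage B. The libraries were chosen by 3 labels, the social environment (B), the age (8 days) and the genotype of the ant. These labels gave 22 of the 96 libraries of the series. Of them, 12 are of genotype M, ants placed as larvae into a colony of the other lineage (MinB), and 10 are of genotype B, ants reared in a colony of their own lineage (BinB). Each library is the whole brain of 1 individual. Per the study's design, larvae of both lineages were moved just after hatching, so both groups share the transfer, the B nestmates and the age. The labels give no colony for an ant, so ants that shared a nest cannot be identified, and p-values measure the spread between individuals. Being reared by the own or the other lineage goes together with genotype here. The same genotype contrast was also measured in 24 ants of M colonies at day 8 (14 M, 10 B) and in 21 ants of B colonies at day 1 (14 M, 7 B), which share no library with the 22.

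The clonal raider ant has no queens. Workers lay unfertilised eggs that develop into daughters, so ants of a clonal lineage are nearly identical genetically, and a genotype difference between 2 lineages is carried by every member of each. Fostering larvae of both lineages into the same kind of colony holds the nestmates constant while the ant's own genotype varies. Gene differences seen in the ants used here go with lineage and, at the same time, with rearing by the own or the other lineage. Any alleles behind them are not identified by expression data.

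The 22 libraries held 12.4 to 26.955 megacounts in genotype M (median 15.1) and 13.4 to 23.6 megacounts in genotype B (median 14.8). Each detected between 10206 and 11070 genes with at least 1 count. Genotype M replicate 8 stood apart from its group. Its median correlation with the other 11 M brains (log2 CPM, counts per megacount of scaled library size) was 0.934, against 0.967 to 0.984 for each of the others, and it held the highest or lowest M value of 65.8% of the tested genes. Genotype M replicate 11 (0.967) was also below the limit used for an outlying library (0.969), and no B library was. The identifiers come without gene names or product names in the tables used here, so the tissue was not checked against markers of neurons, glia or other cell types, and roles cannot be given for the genes below. As the brains were measured in bulk, fewer cells of a type and less RNA per cell cannot be told apart.

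A small share of the tested genes was called between the 2 genotypes, while 1163 (12.3%) had an unadjusted p under 0.05 (edgeR). Of 9472 genes tested, 287 differed between M and B ants (3.03% called, edgeR quasi-likelihood test at an adjusted p under 0.05), with 141 higher in M (1.49%) and 146 lower (1.54%). The median difference of a called gene was 1.57-fold, against 1.07-fold over all tested genes. It was also 1.57-fold when the 5 called genes without any count in 1 genotype were set to their lower bound. Small differences were the most frequent. Of the called genes, 137 differed by less than 1.5-fold, 47 by 1.5 to 2-fold and 103 by at least 2-fold. At the upper end, 41 genes differed by at least 4-fold (25 higher and 16 lower in M) and 18 by at least 16-fold (11 and 7). The 25 include LOC105279483 and LOC105284219, whose calls each rested on 1 brain, as described below. Most intervals were narrow: among all those tested, 7356 (77.7%) had a 95% interval of the M to B ratio that stayed inside 1.5-fold, and 8557 (90.3%) inside 2-fold.

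**Figure D1:**
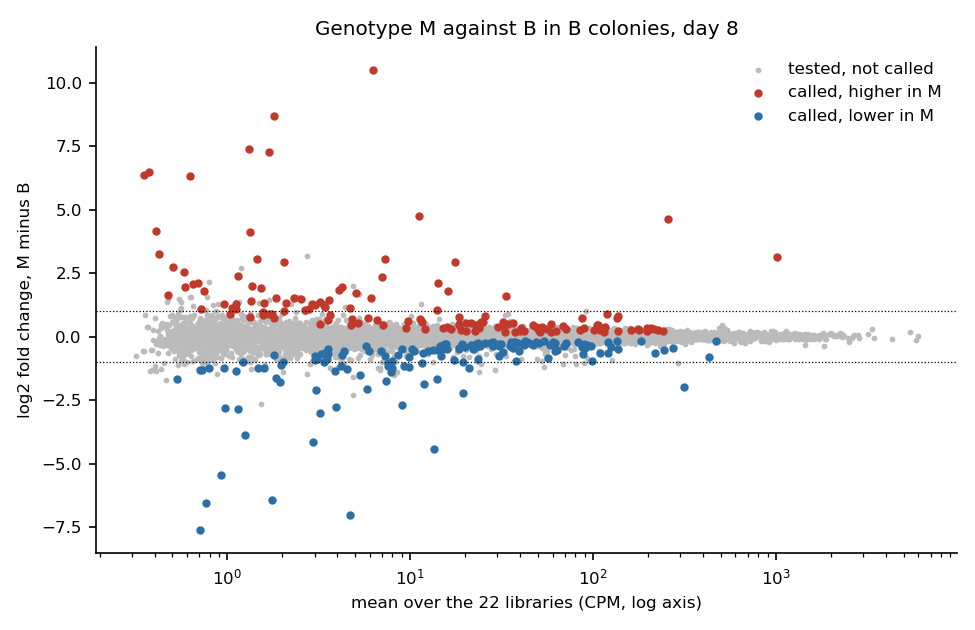
Each point is 1 of 9472 tested genes, placed by its mean level over the 22 libraries (CPM, log axis) and its log2 fold change, genotype M minus B, in B colonies at day 8. The 141 called genes higher in M (red) and 146 lower in M (blue) lie on both sides of 0, and dotted lines mark 2-fold.

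In 63 genes the 12 M and 10 B brains did not overlap at all (0.665% of the tested genes), 34 with every M brain above every B brain and 29 the other way. All 63 were among the called genes. They made up 40 of the 103 differences of at least 2-fold and 14 of the 137 under 1.5-fold, so the ranges also parted for some small changes. Leaving out the outlying libraries of the age raised the number of calls to 379 (168 higher and 211 lower in M), of which 266 were among the 287. Leaving out M replicate 8 alone gave 299 calls (133 higher and 166 lower), 254 of them shared. The day 8 library titles carry numbers, which run higher in M than in B on the whole and whose meaning the labels do not give. With that number as a covariate 246 genes were called, 234 of them shared.

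The called genes were drawn from all levels and from all 14 chromosomes. Among genes with a mean of 1 to 10 CPM, 102 of 1877 were called (5.43%) with a median difference of 2.24-fold. At 100 CPM or more, 35 of 2366 were called (1.48%) with a median of 1.29-fold, and the smallest called difference there was 1.12-fold. Genes under 1 CPM were called only for larger differences, the smallest being 2.12-fold. Long noncoding RNAs were called in 24 of 467 cases (5.14%) and protein-coding genes in 261 of 8979 (2.91%). For differences of at least 2-fold these shares were 17 of 467 (3.64%) and 84 of 8979 (0.936%). Exon bases shared with another gene, which can split or add reads, occurred in 91 of the 287 called genes (31.7%) and in 2797 of the tested genes (29.5%).

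A first group of 5 genes had counts almost exclusively in genotype M, with a mean under 0.1 CPM in B and at least 1 CPM in M. The protein-coding gene LOC113562066 (chromosome 6, 8378774 to 8379678) ranged from 6.84 to 24.05 CPM in the 12 M brains, with a median of 10.8 CPM. It had 0 counts in all 10 B brains, against 2245 counts in M, a level at least 608-fold higher in M when the B group is set to a floor of 3 counts over its libraries (adjusted p = 5.41e-18, edgeR). No B brain reached any M brain.

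The lncRNA LOC113563188 (chromosome 13, 26920 to 29494), which lies at the start of its chromosome, was likewise at 0 in all B brains. In M it ranged from 0.0718 to 6.55 CPM (median 3.27 CPM), at least 173-fold above the floor of the B group (adjusted p = 1.39e-10, edgeR). The lowest M value was that of replicate 8, with 1 count where the other 11 M brains had at least 25. That library stood apart in many genes, and its part in this value was not tested.

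The remaining 3 M-restricted genes had 1 or 2 counts over the 10 B brains. LOC105276304 (chromosome 9, 14463566 to 14469960), which consists of a single exon, ranged from 1.08 to 5.96 CPM in M (median 2.15 CPM) and had 1 count in B. Its pooled rate was 372-fold higher in M, with an exact counting interval of 66.5 to 14732. It shares exon bases with LOC113561418 on the same strand. LOC113562844 (chromosome 10, 1127920 to 1129159) ranged from 1.54 to 5.08 CPM in M with 2 counts in B, a ratio of 254 (interval 70.0 to 2102). LOC105276626 (chromosome 9, 5541259 to 5544989) ranged from 0.616 to 2.23 CPM in M with 1 count in B, a ratio of 172 (interval 30.6 to 6836). In all 3 genes the highest B brain was below the lowest M brain.

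**Figure D2:**
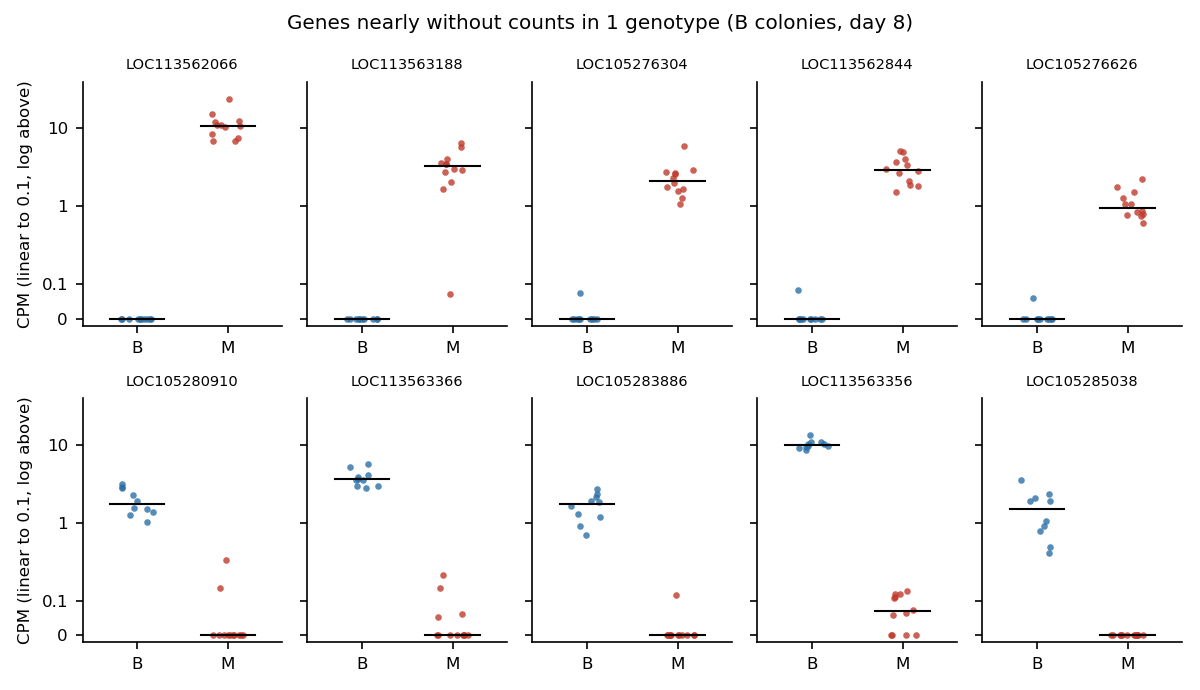
Level of 10 genes nearly without counts in 1 genotype, in CPM (linear up to 0.1, logarithmic above), for each B brain (blue, 10) and M brain (red, 12) of B colonies at day 8, with the median as a black line. The upper 5 genes have counts almost only in M and the lower 5 almost only in B; the single low M brain of LOC113563188, at 0.0718 CPM, is replicate 8.

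The mirror group held 5 genes with counts almost only in genotype B. LOC113563356 (chromosome 14, 8277676 to 8283690) was at 8.65 to 13.5 CPM in the B brains. In the M brains it lay between 0 and 0.133 CPM, and 8 of 12 had at least 1 count. The pooled rate was 141-fold lower in M (counting interval 83.8 to 258, adjusted p = 4.85e-26, edgeR). Every B brain was far above every M brain.

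LOC113563366 (chromosome 14, 320739 to 327381), whose exons overlap those of LOC105285500 on the other strand, stood at 2.83 to 5.62 CPM in B and at most 0.215 CPM in M. LOC105283886 (chromosome 13, 2411491 to 2417676) stood at 0.696 to 2.73 CPM in B and at most 0.12 CPM in M, with 2 counts over the 12 M brains. The last pair of this group, the lncRNA LOC105285038 and the protein-coding gene LOC105280910, are part of a run of neighbours described below. LOC105285038 had 0 counts in all M brains and 247 in the B brains, a level at least 101-fold lower in M against the same kind of floor. LOC105280910 stood at 1.04 to 3.15 CPM in B and at most 0.339 CPM in M. None of the 5 genes had overlapping ranges.

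Whether these 10 genes are unexpressed, absent or poorly matched by reads in the genotype that lacks them was not tested.

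Other large differences concerned genes with counts in both genotypes. Among the named genes, LOC113563300 (chromosome 13, 1762323 to 1767441, protein-coding) had the largest gap between the group medians in CPM. It ranged from 191 to 580 CPM in M (median 502 CPM) and from 10.8 to 22.5 CPM in B (median 19.6 CPM). Expressed as a log2 fold change, M exceeded B by 4.63 ± 0.16 (SE, adjusted p = 5.9e-27), the lowest p of the comparison. The 2 lowest M brains were the outlying replicates 8 (191 CPM) and 11 (259 CPM), and both remained far above every B brain.

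The next tested gene on the same strand, LOC105283927 (chromosome 13, 1777882 to 1782533), differed in the opposite direction. It ranged from 50.2 to 234 CPM in M (median 138 CPM) and from 273 to 632 CPM in B (median 529 CPM), so that M was below B by a log2 value of -1.96 ± 0.18 (SE, edgeR adjusted p = 7.99e-12). Again no M brain reached a B brain, and the lowest M values were those of replicates 11 and 8. The genes are separated by 10440 bases. Of the 26 neighbouring pairs of tested genes in which both were called, 22 changed in the same direction and this was 1 of 4 that did not.

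LOC113561374 (chromosome 7, 16588031 to 16592433) stood at 9.06 to 16.7 CPM in M and 0.682 to 2.43 CPM in B (log2 fold change 3.07 ± 0.17 SE, adjusted p = 4.02e-19). LOC113561389 (chromosome 11, 7634243 to 7635142), which overlaps LOC113562959 on the other strand, stood at 0.933 to 3.54 CPM in M and at most 0.329 CPM in B. LOC105282891 (chromosome 7, 9972564 to 9978411), which shares exon bases with genes on both strands, stood at 2.15 to 4.98 CPM in M and at most 1.05 CPM in B. The lncRNA LOC109610738 (chromosome 8, 9233884 to 9234220), overlapping LOC105275653 on the other strand, stood at 1.06 to 4.35 CPM in M and at most 0.812 CPM in B. In each of these genes the M and B ranges were apart.

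Among genes lower in M, LOC113563270 (chromosome 13, 5481763 to 5484393), a single-exon gene, stood at 22.3 to 33.5 CPM in B and 0.33 to 3.2 CPM in M (log2 fold change -4.42 ± 0.23 SE, adjusted p = 2.98e-20). It shares exon bases with LOC105281902 on the same strand. LOC105274458 (chromosome 11, 2270998 to 2272059), which overlaps LOC105274680 on the other strand, stood at 1.18 to 3.86 CPM in B and at most 0.433 CPM in M. LOC105283974 (chromosome 1, 15620282 to 15621805) stood at 5.07 to 9.19 CPM in B and at most 1.83 CPM in M. All 3 parted the genotypes completely.

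The lncRNA LOC105283424 (chromosome 12, 3115660 to 3122090) and the single-exon gene LOC113561427 (3113284 to 3115573), 86 bases apart on the same strand, were both lower in M, with log2 values of -3.02 ± 0.30 and -2.80 ± 0.48 (SE, edgeR adjusted p = 1.39e-10 and 6e-05). For LOC105285960 (chromosome 3, 6851598 to 6853605) the ranges overlapped, with 0.84 to 3.36 CPM in B and 0 to 1.29 CPM in M (log2 -2.84 ± 0.67 SE, adjusted p = 0.00675).

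Differences within 2-fold could be as sharply separated as the large ones where a gene was well counted. LOC105279007 (chromosome 9, 8835959 to 8843561) ranged from 298 to 384 CPM in M (median 320 CPM) and from 491 to 607 CPM in B (median 565 CPM). Its log2 fold change was -0.78 ± 0.04 (SE, adjusted p = 2.98e-20). LOC105284457 (chromosome 6, 16873235 to 16879846) ranged from 152 to 220 CPM in M (median 163 CPM) and from 85.4 to 111 CPM in B (median 93.5 CPM), and its log2 value was 0.83 ± 0.05 higher in M (SE, edgeR adjusted p = 6.55e-17). Neither gene had overlapping ranges. For LOC105284457 the 2 highest M brains were the outlying replicates 11 (220 CPM) and 8 (216 CPM), and the other 10 M brains lay at 173 CPM or below, still above all B brains.

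Also higher in M were LOC105284349 (chromosome 4, 11775184 to 11779087, log2 0.73 ± 0.06), LOC105276080 (chromosome 9, 15140516 to 15144413, log2 0.47 ± 0.05) and LOC105277298 (chromosome 9, 13866475 to 13872431, log2 0.47 ± 0.04), which shares exon bases with LOC105277303 on the same strand. Lower in M were LOC105276704 (chromosome 6, 14119349 to 14121411, log2 -0.92 ± 0.10), which overlaps LOC105276703 on the other strand, LOC105283152 (chromosome 3, 1758021 to 1764802, log2 -0.77 ± 0.06) and LOC105286102 (chromosome 12, 21364 to 25590, log2 -0.54 ± 0.05). Errors are SE, and the highest edgeR adjusted p of these 6 genes was 5.22e-09, that of LOC105276080. In all of them the 22 brains fell into 2 ranges without overlap.

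**Figure D3:**
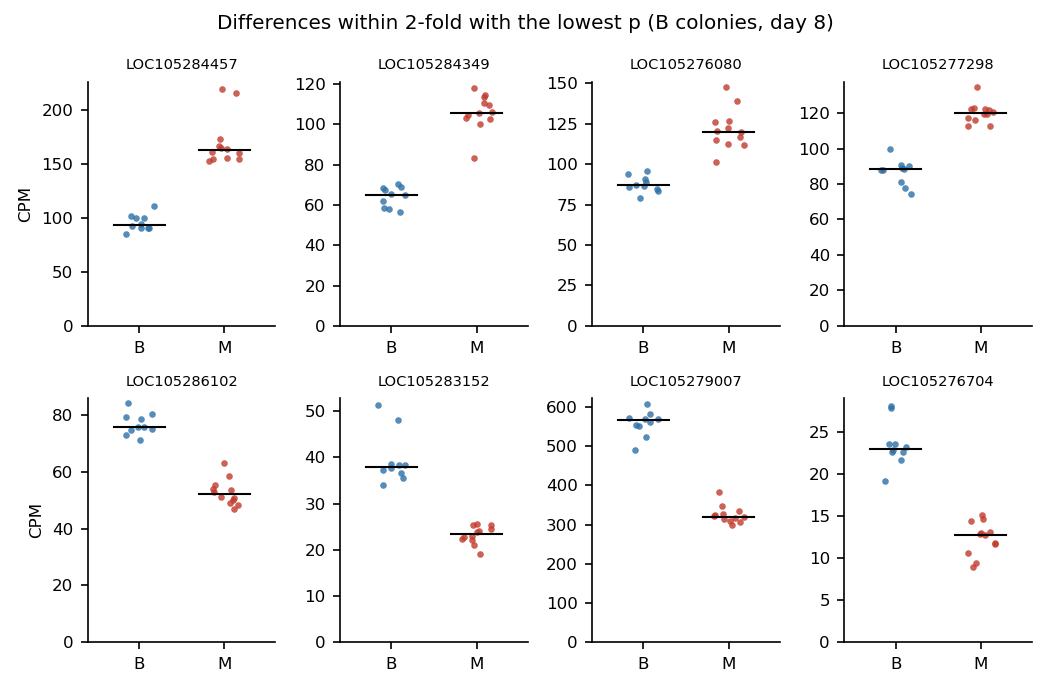
Level in CPM (linear axis from 0) of the 8 called genes within 2-fold that had the lowest p in each direction, for each B brain (blue, 10) and M brain (red, 12) of B colonies at day 8, with the median as a black line. The M and B values do not overlap in any panel, as for LOC105279007 with 298 to 384 CPM in M and 491 to 607 CPM in B.

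The 5 called genes with the highest CPM, which is not scaled to gene length, were LOC105279483, LOC105282956, LOC105279007, LOC105283927 and LOC105287702. LOC105287702 (chromosome 5, 3097634 to 3103675, overlapping LOC105287701 on the other strand) ranged from 210 to 340 CPM in M (median 229 CPM) and from 288 to 363 CPM in B (median 313 CPM), with a log2 difference of -0.43 ± 0.07 (SE, edgeR adjusted p = 8.49e-06) and overlapping ranges. LOC105282956 (chromosome 11, 4347373 to 4399297) ranged from 311 to 484 CPM in M and from 456 to 537 CPM in B, a log2 difference of -0.18 ± 0.05 (SE, edgeR adjusted p = 0.0312). This call was lost without any 1 of 8 libraries, and the lowest M value was that of replicate 8.

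LOC105279483 (chromosome 9, 15605082 to 15639359) was called through 1 brain. M replicate 7 had 18195 CPM where the other 11 M brains had at most 220 CPM, and the medians were 191 CPM in M and 192 CPM in B. With that brain M exceeded B by log2 3.15 ± 0.70 (SE, edgeR adjusted p = 0.00339), and without it the value was -0.02 (adjusted p = 0.917). By a search made after the values were seen, for a library over 8 times its group's median, 3 further calls rested on 1 brain, each time M replicate 8. LOC113561583 reached 39.3 CPM there and at most 4.36 CPM in other M brains, and its adjusted p went from 0.00739 to 0.125 without it. For LOC105279220 the adjusted p went from 0.0312 to 0.448, and for LOC105284219 from 0.0341 to 0.485. Of the 287 calls, 195 (67.9%) passed without any 1 of the 22 libraries, as did 84 of the 103 of at least 2-fold.

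Some called genes lay next to each other. Of 9458 pairs of neighbouring tested genes, 22 were called in the same direction and 4 in opposite directions, and 38 of the 287 genes (13.2%) belonged to a same-direction pair. There were 4 runs of 3 or more. The longest held 5 genes in 59.5 kb of chromosome 9 (4342706 to 4402164), all higher in M: LOC105283416, LOC105285039, LOC113562561, LOC105285042 and LOC113562566, with log2 fold changes of 1.54 to 3.24. Within it, LOC105285039 stood at 22.4 to 40.8 CPM in M and 0.812 to 8.19 CPM in B, and LOC113562561 at 18.7 to 25.5 CPM in M and 1.83 to 10.8 CPM in B. For LOC105285042 the ranges overlapped, because B replicate 9 reached 20.7 CPM where the lowest M brain had 13.4 CPM. The ranges of LOC113562566 overlapped too, with M brains from 1.43 CPM and B brains up to 2.66 CPM. LOC105285042 and LOC113562566 share exon bases on the same strand, so their counts may not be independent, depending on how shared reads were counted.

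At the start of chromosome 11 (27614 to 268344) 3 neighbouring genes were lower in M. LOC105285038 had no count in M, LOC105281691 (a transcript of the class misc_RNA) stood at 1.18 to 11.7 CPM in B and 0 to 1.36 CPM in M, and LOC105280910 was at most 0.339 CPM in M. Elsewhere on chromosome 11 (13022187 to 13030327) 3 genes in 8.14 kb were higher in M. The middle one, LOC113562974, stood at 15.8 to 28.9 CPM in M and at most 1.42 CPM in B (log2 fold change 4.74 ± 0.24 SE, adjusted p = 2.39e-20). LOC113562975 (log2 2.36 ± 0.14 SE) and LOC105275343 (log2 1.98 ± 0.23 SE) flank it, and in all 3 the ranges were apart.

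The fourth run lay at the start of chromosome 12 (13917 to 25590), where LOC105286103, LOC113563075 and LOC105286102 all fell in M, with log2 values between -1.37 and -0.37. LOC113563075 showed the strongest change, at 1.03 to 9.48 CPM in M and 8.8 to 15.3 CPM in B. Its ranges overlapped slightly, as did those of LOC105286103, while those of LOC105286102 did not. Chromosome ends were taken as the first 300 kb of the sequence and the last 300 kb up to the end of the last annotated gene. There 29 of 468 tested genes were called (6.20%), and elsewhere 258 of 9004 (2.87%). By chromosome, the called share was lowest on chromosome 5 (11 of 797, 1.38%) and highest on chromosome 13 (24 of 343, 6.997%), followed by chromosomes 14 (4.42%) and 11 (4.22%). Called differences of at least 2-fold made up 17 of 758 tested genes on chromosome 11, 8 of 343 on chromosome 13 and 5 of 294 on chromosome 14. Over all chromosomes they were 103 of 9472. These shares are given as counts, without a test, since neighbouring genes are not independent.

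**Figure D4:**
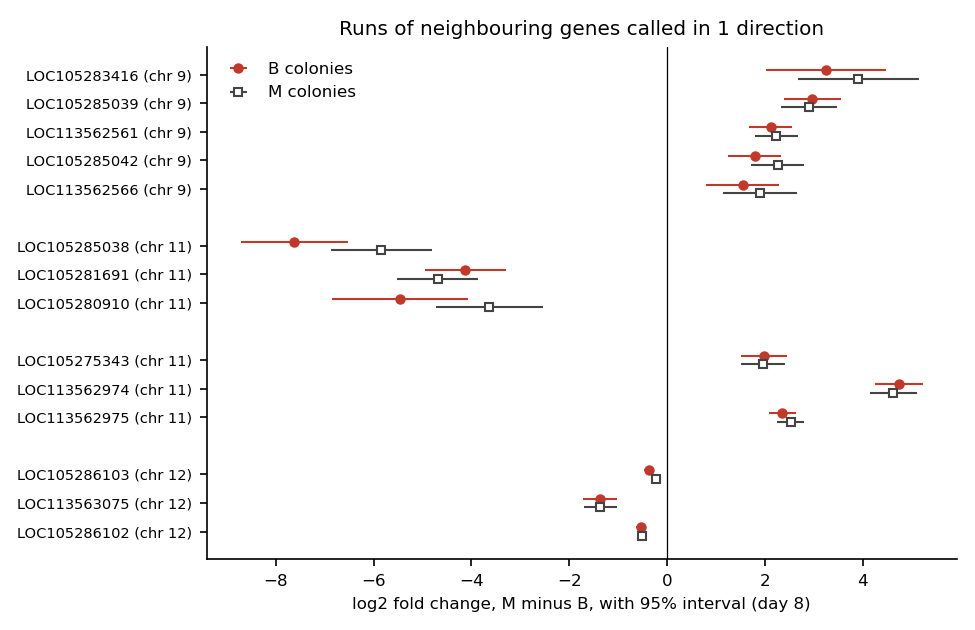
Log2 fold change, genotype M minus B, with its 95% interval for the 14 genes of the 4 runs of neighbouring genes, in B colonies (red circles) and M colonies (open squares) at day 8. Genes are in chromosomal order within each run, and in each run all genes lie on the same side of 0 in both kinds of colony.

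The same contrast in M colonies showed whether these differences held in ants with other nestmates. There 334 of 9472 genes were called (3.53%), 140 higher in M (1.48%) and 194 lower (2.05%), in 24 libraries that share no ant with the 22 but enter the same fit. Of the 287 calls from B colonies, 284 had the same sign in M colonies and 192 were also called there, which is 66.9% of the calls in B colonies and 57.5% of those in M colonies. Over all tested genes 71.2% had the same sign. Without outlying libraries this share was 62.3%, while 369 of 379 calls had the same sign and 61.5% were called in both. The share of calls made in both rose with size, from 76 of 137 under 1.5-fold to 88 of 103 at 2-fold or more and 39 of 41 at 4-fold or more. The median log2 difference of the 287 genes, taken in the direction seen in B colonies, was 0.65 there and 0.53 in M colonies. The genes were picked on the first of these values. Of the 63 genes with separate ranges in B colonies, 48 were also without overlap in the same direction in M colonies, where 0.781% of tested genes were.

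No gene passed a test of the difference between the 2 kinds of colony. The genotype by environment term was called for 0 of 9472 genes (0.0%) with edgeR, DESeq2 and limma-voom alike. In edgeR 223 genes had an unadjusted p under 0.05 (2.35%), and among the 287 calls 20 did. In simulated data the test of this term recovered 50% of changes of 1.5-fold and 88% of those of 2-fold. Whether these shares hold for the measured libraries, which include outlying ones, was not tested. Absence of calls thus does not show that the genotype difference is equal in both kinds of colony. The 95 genes called in B colonies alone are therefore not shown to be particular to them: 61 of them differed by less than 1.5-fold, 92 had the same sign in M colonies and 11 had an unadjusted p under 0.05 for the difference. The lowest of these was 0.00089, for LOC105279483, the gene called through M replicate 7 alone. A larger value in M colonies was seen for LOC105282891, higher in M by log2 2.96 ± 0.31 in B colonies and 4.2 in M colonies (edgeR unadjusted p of the difference 0.00617), which did not pass the adjustment (adjusted p = 1.0).

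**Figure D5:**
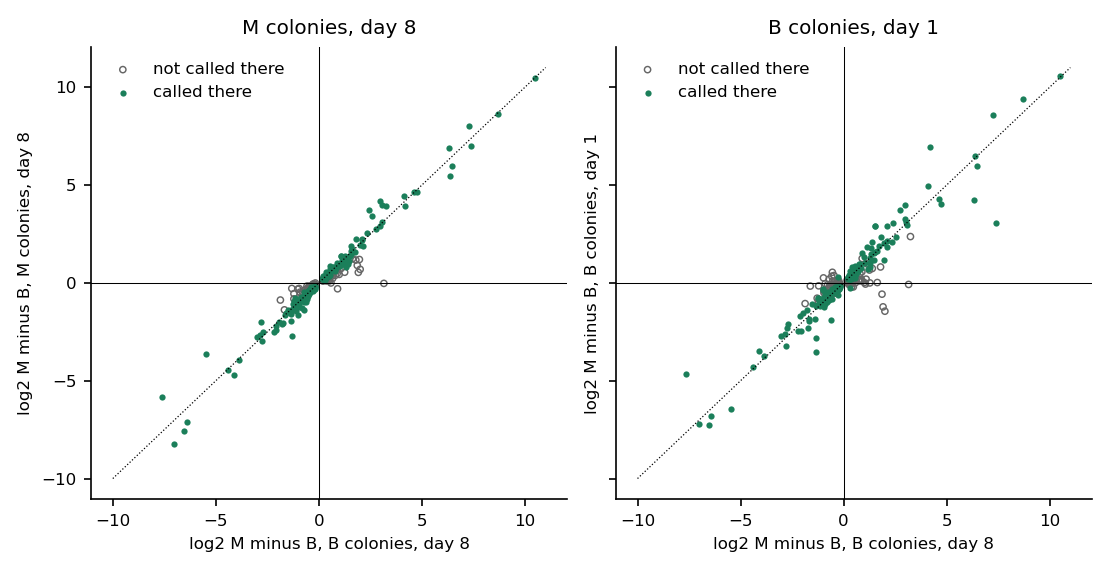
Log2 fold changes (M minus B) of the genes called in B colonies at day 8, against those in M colonies at day 8 (left, 287 genes) and in B colonies at day 1 (right, 285 genes). Filled points were called in the second setting too, and the dotted line marks equal values; 284 of 287 and 260 of 285 genes have the same sign.

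At day 1, in B colonies, 978 of 9834 genes were called (9.95%), 384 higher in M (3.9%) and 594 lower (6.04%). Without outlying libraries the day 1 number was 500. The ages differ in the form of their library titles, so an effect of age and one of how each set was made cannot be told apart. Of 285 day 8 calls tested at day 1, 260 (91.2%) had the same sign and 163 were called with it. The latter were 57.2% of the day 8 calls but 17.1% of the day 1 calls. Large differences were again the most repeatable, with 81 of 101 at 2-fold or more called with the same sign at day 1. The 10 genes nearly without counts in 1 genotype were all called in the same direction in both other settings, but not all met the same limits of level there. In M colonies the mean of the higher genotype was 0.917 CPM for LOC105276626 and 0.725 CPM for LOC105285038, and LOC105280910 averaged 0.167 CPM in M. At day 1 the higher genotype averaged under 1 CPM for LOC105276304, LOC105276626, LOC105285038 and LOC105280910. LOC113562066 stood at 7.37 to 15.7 CPM in the M brains of M colonies and at 8.47 to 13.5 CPM in those of day 1, again with 0 counts in every B brain of both. LOC113563188 had 0 counts in the same B brains, and LOC105283886 had 0 counts in all 14 M brains of M colonies. LOC113563356 stood at 7.66 to 12.4 CPM in B brains of M colonies and at 2.09 to 8.22 CPM at day 1, where the lowest was the outlying B replicate 9, against at most 0.116 CPM in M. Ranges overlapped for LOC105280910 in M colonies, where M brains reached 1.35 CPM and the lowest B brain had 0.895 CPM. They also overlapped for LOC105285038 and LOC105276304 at day 1.

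Of the 9404 genes tested at both ages, 135 were called in the same direction in all 3 settings (66 higher and 69 lower in M). They were 47.4% of the 285 day 8 calls tested at day 1. Of the 63 genes with separate ranges at day 8, 36 were also without overlap in the same direction at day 1, where 0.876% of the tested genes were. In all 3 settings 33 of the 63 were (52.4%).

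Over all 9404 genes tested at both ages, 42.4% had the same sign, and of the day 1 calls 489 of 951 (51.4%) did. These shares moved with the outlying libraries: without them, 55.4% of all genes and 413 of 475 day 1 calls (86.9%) had the same sign, while for the day 8 calls the share was 90.4%. The correlation of log2 fold changes across genes, which share libraries and are not independent, was 0.537 with all libraries and 0.653 without the outlying ones. The corresponding values with M colonies at day 8 were 0.709 and 0.788.

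A test of the genotype difference between ages (B colonies, all 96 libraries in the fit) called 132 of 10056 genes (1.31%), 90 with a positive value (0.895%) and 42 with a negative one (0.418%), and 10 without outlying libraries. Of the 287 day 8 calls, 19 were among the 132. For LOC105279007 the deficit in M was larger at day 8. At day 1 the M brains averaged 279 CPM ± 25.1 (SD, n = 14) where B brains had 385 CPM ± 45.9 (n = 7). The day 8 averages were 325 CPM ± 22.8 for M (n = 12) and 558 CPM ± 31.9 for B (n = 10), and the log2 ratio fell by 0.32 ± 0.07 (SE, edgeR adjusted p = 0.0124). For LOC105276304 the ratio was higher at day 8 by log2 4.34 ± 1.20 (SE, adjusted p = 0.049). Its M level averaged 2.39 CPM ± 1.27 in the 12 older brains and 0.381 CPM ± 0.269 (both SD) in the 14 younger ones, and no B brain of either age exceeded 0.14 CPM. This call was close to the threshold. It was lost with library totals (adjusted p = 0.0579), with no filter (0.0523), with limma-voom (0.0793) and without outlying libraries (0.150, at a log2 value of 4.27), and held with DESeq2 (0.028) and its size factors (0.0434).

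In 2 genes, singled out after their values were seen, calls at the 2 ages had opposite signs. LOC105274820 (chromosome 8, 3706892 to 3716071) was higher in M by log2 0.32 ± 0.09 at day 8 and lower by -0.27 ± 0.09 at day 1 (SE, edgeR adjusted p = 0.0464 and 0.0427). LOC105277357 (chromosome 9, 13115199 to 13117880) was lower in M by -0.27 ± 0.07 at day 8 and higher by 0.29 ± 0.10 at day 1 (SE, edgeR adjusted p = 0.0153 and 0.049). Without outlying libraries the day 1 call of each was lost (adjusted p = 0.534 and 0.214) and so was the test between ages (0.150 and 0.0714).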

How the data were processed

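Per the labels' protocols, RNA of whole single brains was extracted with Tri reagent and sequenced from stranded mRNA libraries. The authors deposited raw counts per gene, together with gene coordinates and lengths. STAR 2.7.8a and featureCounts are named in the submitters' processing notes. For the strand setting and the genome build, nothing was given in the sources used here. Gene spans equalled those of RefSeq Obir_v5.4 for 100.0% of 13553 matched features other than tRNAs, so chromosome numbers and gene classes come from that annotation and coordinates from the deposited table.

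Counts were tested with edgeR 4.0.16 (R 4.3.3; quasi-likelihood F test, TMM scaling, filterByExpr with a minimum count of 10, robust dispersion, Benjamini-Hochberg adjustment over all tested genes). All 46 libraries of day 8 entered 1 fit with 4 groups, and contrasts are genotype M minus B. The 50 libraries of day 1 were fitted alike, and the test between ages used all 96. Adjusted p-values with no tool named are edgeR's; SE and 95% intervals derive from the F statistics. CPM are counts per megacount of TMM-scaled library size. Counting intervals are exact (Clopper-Pearson) and, like floors of 3 counts, cover counting error only. A library was outlying if its median correlation with its group lay more than 3 scaled MADs under the median of its age. Replicate numbers at day 8 follow the deposit order only. Within the 2 groups every pair of libraries differed beyond sampling noise, which gives a chi-square per gene near 1 (lowest 9.70, M replicates 4 and 5).

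Named genes were the 12 largest and 12 smallest log2 fold changes with at least 1 CPM in the higher group, the 4 lowest p-values per direction within 2-fold at 10 CPM or more, the 5 highest means, runs of 3 or more called neighbours, and genes under 0.1 CPM in 1 group and at least 1 CPM in the other. Lists by gene function and cell type markers were void, as no product names were at hand. Members, lists and tests were chosen with earlier results of these data known. Alternatives were other scalings, filters, DESeq2 1.42.0, limma-voom (limma 3.58.1), the number in the library title as a covariate, the 22 libraries alone and leaving out libraries. Data simulated for this comparison held 9435 genes, with 50 changed per size. In them the test recovered 44% of changes of 1.25-fold, 76% of those of 1.5-fold, 94% at 2-fold and 100.0% at 4-fold. Recovery in the measured libraries, with their outlying ones, was not tested.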

Additional observations from a re-analysis of the deposited data

Results flagged for a closer look

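The named genes were picked from these data, so no chance rate applies to flags among them. In 7 of the named genes 1 B brain was flagged as an outlier of its group, which need not mean a large distance in CPM. No M brain was flagged in this way, although M replicate 7 had 18195 CPM of LOC105279483, as described above. Of these, 3 are genes in which a single B brain had any count (1 or 2): B replicate 2 at 0.0744 CPM of LOC105276304, B replicate 1 at 0.083 CPM of LOC113562844 and B replicate 6 at 0.0615 CPM of LOC105276626. LOC113563356 was highest in B replicate 7 (13.5 CPM), LOC105282956 lowest in B replicate 1 (456 CPM) and LOC105283927 lowest in B replicate 4 (273 CPM). LOC105285042 was highest in B replicate 9 (20.7 CPM). The genotype difference differed between ages for LOC105276304 (log2 ratio 4.34 higher at day 8) and for LOC105279007 (log2 ratio -0.32 from day 1 to day 8), by the test of the difference itself. The first of these calls was lost under 4 alternatives, with adjusted p of 0.0523 to 0.150 (edgeR and limma-voom), and the second held under every alternative run.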

How the results depend on the processing

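The number of genes called in B colonies at day 8 (287) moved by over 1.5 times under 1 alternative, the stricter filter of 10 CPM. That filter tests 7214 genes and gave 162 calls, all of them among the 287 with the same sign. In the main test, 127 calls had a mean of 10 to 100 CPM and 35 a mean of at least 100 CPM. The number of calls was between 219 (only the 22 libraries in the fit) and 379 (without outlying libraries) under the others. It was 347 for DESeq2, 246 with the title number as a covariate, and between 243 and 299 when 1 of the 22 libraries was left out. The genotype by environment term gave 0 calls under every alternative run. In M colonies the 334 calls became 204 with the stricter filter, and at day 1 the 978 calls became 500 without outlying libraries. The 132 calls between ages became 205 with DESeq2 size factors, 45 with library totals, 79 with no filter, 420 with DESeq2, 22 with limma-voom and 10 without outlying libraries; the cause was not tested. With the day 1 title number as a replicate block, 708 genes were called at day 1 in B colonies. Same-numbered libraries correlated between -0.117 and 0.299, and none of the 7 B libraries correlated best with its own number. What the number stands for cannot be told from this, since libraries of a shared source need not be each other's best match. Day 8 titles carry no shared numbers. Among the named genes, LOC105279483 reversed without M replicate 7 (log2 -0.017) and with DESeq2 (log2 -0.011), and its range over the left-out libraries was -0.017 to 3.27. Of simulated 1.5-fold differences between the genotypes in B colonies 76% were recovered, so smaller ones can be missed at this depth and number of brains. For the genotype by environment term the share at 1.5-fold was 50%. Neither share was tested in the measured libraries, which include outlying ones.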
